A study of Mus musculus with 8 samples.

Results

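The strongest N6-methyladenosine (m6A) sites of mouse vascular smooth muscle cells (VSMCs) that were found in every peak list of the study are described here. Peaks of 4 lists were merged where they shared at least 1 bp, and a merged region was kept when its highest fold enrichment was 12 or more in each list. This left 863 of 11361 merged regions (7.60%), or 863 of the 4929 regions found in all 4 lists (17.5%). The other 4066 regions found in all 4 lists serve as the comparison set. Fold enrichment is the ratio of antibody-bound (IP) fragments to the local background at the top of a peak, its summit, and it chose the regions, so the regions were selected on enrichment in all 4 lists and their enrichment values are given as a description.

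The cells were primary aortic VSMCs of adult C57BL/6J mice, grown out of stripped aortas and transduced with lentivirus. One group expressed a short hairpin RNA against Mettl14 (shMettl14) and the other a nontargeting hairpin directed at a plant microRNA (shCTR). Both were cultures of transduced cells and both carried virus, and the study's text names the hairpin shMettl14-2. Each shRNA had replicates A and B, with 1 IP and 1 input sample per replicate (8 samples in all), and each IP sample gave 1 peak list. Nothing in the labels says that the replicates came from separate animals, so differences are measured against a spread that may be technical. The lists give no total read numbers. A uniform change in m6A at all sites cannot be seen in them, and in bulk RNA more cells with a site and more m6A per cell cannot be told apart.

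m6A is the commonest internal modification of mRNA. It is written by a complex whose core is METTL3 and METTL14, mostly at adenosines in the DRACH sequence (A, G or T first, then A or G, then AC, and last A, C or T), and it is read by YTH domain proteins that affect decay and translation. In mammalian mRNA it gathers near stop codons and in long exons and is sparse close to exon junctions. In VSMCs the balance between a contractile and a synthetic state is set by serum response factor (SRF) with its cofactors, by growth factor receptors such as those for PDGF, and by TGF-beta, Notch and Hippo signals.

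The sequence around the DRACH nearest to the summit is shown for regions with the highest enrichment, to show which of the 18 possible DRACH words lay there, and for Herc2, Mocs3 and Bhlhe40 the sequence around the GGACT nearest to the summit is shown, which need not be the nearest DRACH. Each window is 29 nt on the transcript strand, 5′ to 3′, read from the GRCm38.p6 assembly of RefSeq. Capitals mark the 5-base motif.
Gmeb2 (3′ UTR, chr2:181253691-181253719, minus strand): agaggccactacGGACAcaggccacaggg
Usp35 (coding sequence, chr7:97312150-97312178, minus strand): ggaggtggcagaGGACAgggaagaggaag
Elk4 (coding sequence, chr1:132018300-132018328, plus strand): tttgccagaaaaGGACAaaacaaataact
Elmsan1 (coding sequence, chr12:84172858-84172886, minus strand): agggggcctcggGGACTgtggacagatga
Sema4c (3′ UTR, chr1:36549334-36549362, minus strand): tgtggctcaccaGGACTtcagcctcacag
Zfp703 (across the stop codon, chr8:26980080-26980108, plus strand): cttggataccagTAACCacagctctggcc
Zfp282 (3′ UTR, chr6:47905583-47905611, plus strand): atctcatagggtGGACCcagtggccaggg
Herc2 (coding sequence, chr7:56231051-56231079, plus strand): tgacagcagtgaGGACTcagataatgagg
Mocs3 (coding sequence, chr2:168231955-168231983, plus strand): gacatcgtggggGGACTcatggcctgggc
Bhlhe40 (coding sequence, chr6:108664840-108664868, plus strand): attggagaagggGGACTtgcgcagtgagc
The A of the motif lay 3 nt from the summit in Gmeb2, 1 nt upstream of it in Elk4 and 34 nt downstream in Usp35. In Zfp703 the A of the nearest DRACH was 2 nt past the first base of the stop codon. The 3 highest regions held the same word, GGACA.

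The strongest regions, by the lowest of their 4 values, were led by Gmeb2, Usp35 and Elk4. Gmeb2, a protein that binds the glucocorticoid modulatory element, had a fold enrichment of 37.4 and 33.6 in the shCTR lists A and B, and 32.6 and 34.7 in the shMettl14 lists A and B. Its region (chromosome 2, 181253470 to 181254210) lay in the last exon, with the summit at 77 nt. Positions along a transcript are counted from the first base of the stop codon, and negative values lie before it. Usp35, a deubiquitinase, had the highest single value, 58.6 in shCTR A, beside 44.5 in shCTR B, and had 30.3 and 54.9 in shMettl14. Its summit lay at -1008 nt in internal exon 10 of 11, which is 1273 nt long. The shMettl14 A value was the lowest of the 4 in each of these transcripts, and the other shMettl14 value lay among the shCTR values in both.

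Elk4, an ETS factor that binds DNA together with SRF, followed with 39.9 and 34.6 in shCTR and 28.8 and 33.6 in shMettl14 (A and B). Its summit was in exon 3 of 5, at -361 nt. The groups did not overlap for Elk4. Elmsan1, a scaffold of a histone deacetylase complex, had 30.9 and 42.8 in shCTR and 26.4 and 28.6 in shMettl14, also without overlap. The values of the 2 groups did not overlap in 33.3% of the strong regions and in 32.1% of all 4929 shared regions. They were lower in shMettl14 in 21.4% of the strong and 18.7% of all shared regions, and higher in 11.8% and 13.4%, so non-overlap in a named gene is common and is given as a description.

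The fold enrichment is made from the pileup, the number of overlapping IP fragments at the summit, so the pileups describe the depth behind each ratio and are no separate support for it. The recovered pileup was 62, 54, 61 and 45 in Gmeb2 (shCTR A and B, then shMettl14 A and B). In Usp35 it was 86, 106, 84 and 88 fragments. Over all 863 regions the median pileup was 41 and 39 fragments in shCTR and 35 and 30 in shMettl14, and the smallest was 12. Over the other 4066 regions the medians were 20, 18, 17 and 14 fragments.

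**Figure D1:**
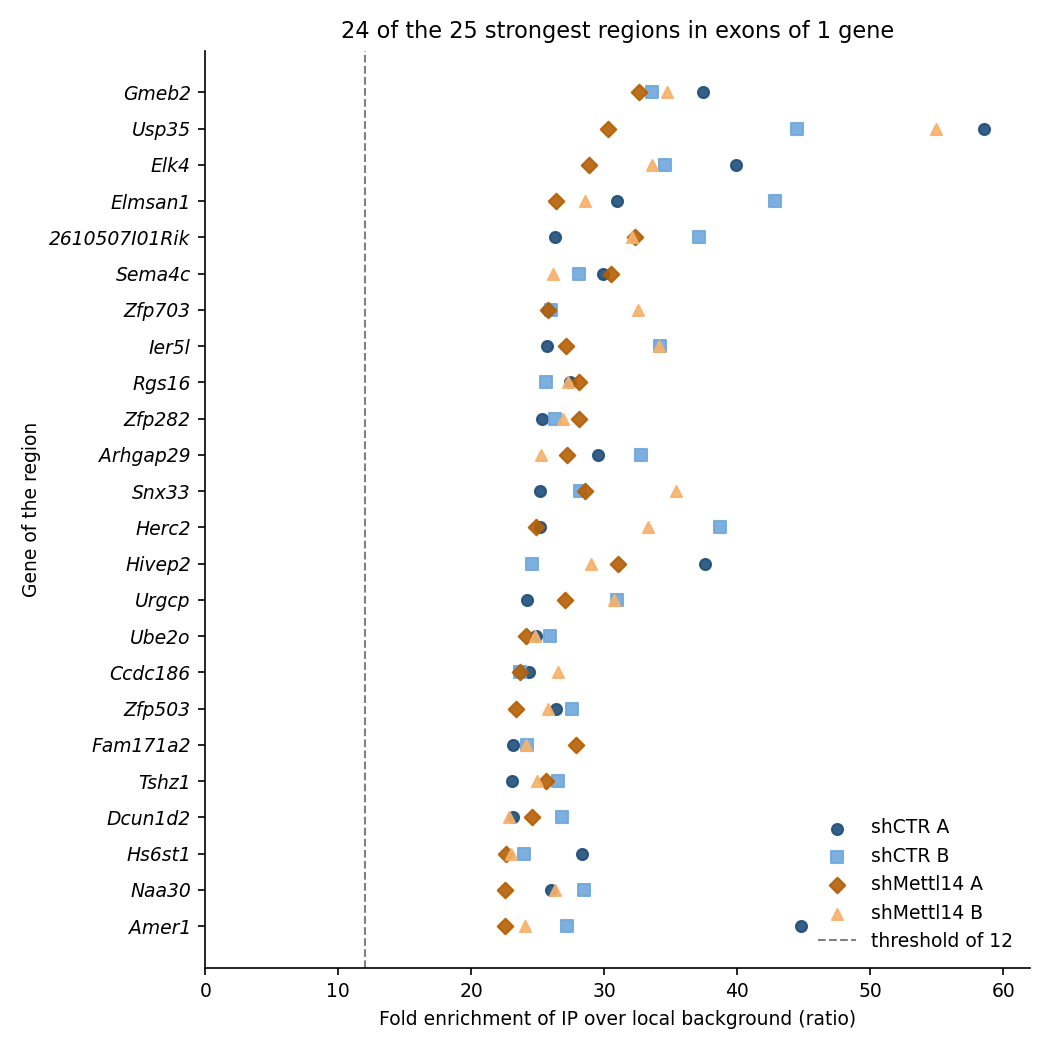
Fold enrichment (x axis, ratio of IP to local background) of 24 of the 25 regions in exons of 1 gene with the highest value of the lowest of their 4 lists (y axis, gene), with 1 marker per list and the threshold of 12 as a dashed line. Most markers of a region lie close together between 22.5 and 40, and the widest spreads belong to Usp35 (30.3 to 58.6) and Amer1 (22.5 to 44.8).

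Of the 25 strongest regions of any kind, 2 lay outside annotated genes, on chromosomes 2 (25.5, 28.9, 31.2 and 26) and 17 (24.6, 23.4, 23.3 and 28). The plotted group of 25 holds regions in exons of 1 gene, and in it the spread between lists was small for several genes. Ube2o, a ubiquitin-conjugating enzyme, had 24.8, 25.9, 24.1 and 24.8 in the order of lists used above. Zfp282, a zinc finger protein, had 25.3, 26.3, 28.1 and 26.9. Both regions lay in the last exon. Amer1, which recruits APC to the membrane in Wnt signalling, had 44.8 in shCTR A but 27.2, 22.5 and 24.1 in the other lists. Of this group, 1 was in a noncoding RNA (2610507I01Rik, chromosome 11, 59199739 to 59200274), with 26.3, 37.1, 32.3 and 32.1.

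Over all 863 regions the median fold enrichment was 17.7 and 17.4 in the shCTR lists and 16.3 and 17.7 in the shMettl14 lists, and the highest values were 58.6, 44.5, 32.6 and 54.9. A shared region reached 12 in 3 lists but not the fourth in 484 cases. The regions just inside were in Kansl3, with a lowest value of 12.0014, and in Apc and Ing2, both with 12.0020. Among those just outside were Dlc1 and Itprip, both with 11.9890. At 12 or more in both lists of a pair there were 1255 regions for shCTR, 1123 for shMettl14, 1213 for both A lists together and 1210 for both B lists.

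Where these strong regions lay was examined next, using features that did not enter the choice. The position of a region is the second of its 4 strongest summits, 1 per list, in genomic order, and genes were read from GENCODE M21. Of the 863 regions, 775 (89.8%) had that position in an exon of a single coding transcript. A further 32 were in other exons of coding genes, 21 in exons of noncoding genes, 13 in introns, 14 outside genes and 8 in exons of several coding genes. Introns held 1.51% of the strong regions, compared with 4.35% of the other shared regions. No test of this or of the next differences was made, because regions are not replicates, and 95% Wilson intervals cover counting error only.

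Within coding transcripts the strong regions were divided between the coding sequence (495 of 775, 63.9%, interval 60.4 to 67.2), the 3′ UTR (262, 33.8%) and the 5′ UTR (18, 2.32%). The other shared regions gave almost the same split, with 64.8%, 32.9% and 2.31%. Of all positions in the 730 transcripts with a strong region, 52.8% were coding, 41.2% were in the 3′ UTR and 5.96% in the 5′ UTR.

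The 2 sets differed more around the stop codon. Within 200 nt of it lay 35.0% of the strong regions (271, interval 31.7 to 38.4) and 29.3% of the other shared regions (interval 27.8 to 30.8), compared with 7.34% of all positions of the transcripts. The contrast depended on the window, since within 100 nt the shares were 16.8% (interval 14.3 to 19.6) and 15.5% (interval 14.3 to 16.7). In the 200 nt window the surplus was on the coding side. In the 200 nt before the stop codon were 18.7% of the strong and 13.1% of the other regions, whereas in the 200 nt after it the shares were 16.3% and 16.2%. More than 1000 nt before the stop codon the order turned, with 26.7% of the strong and 34.5% of the other regions. The difference near the stop codon depended on the summit. With the midpoint of the merged region in its place the shares were 28.7% and 28.2%, and strong regions were wider, with a median of 636 bp compared with 444 bp.

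**Figure D2:**
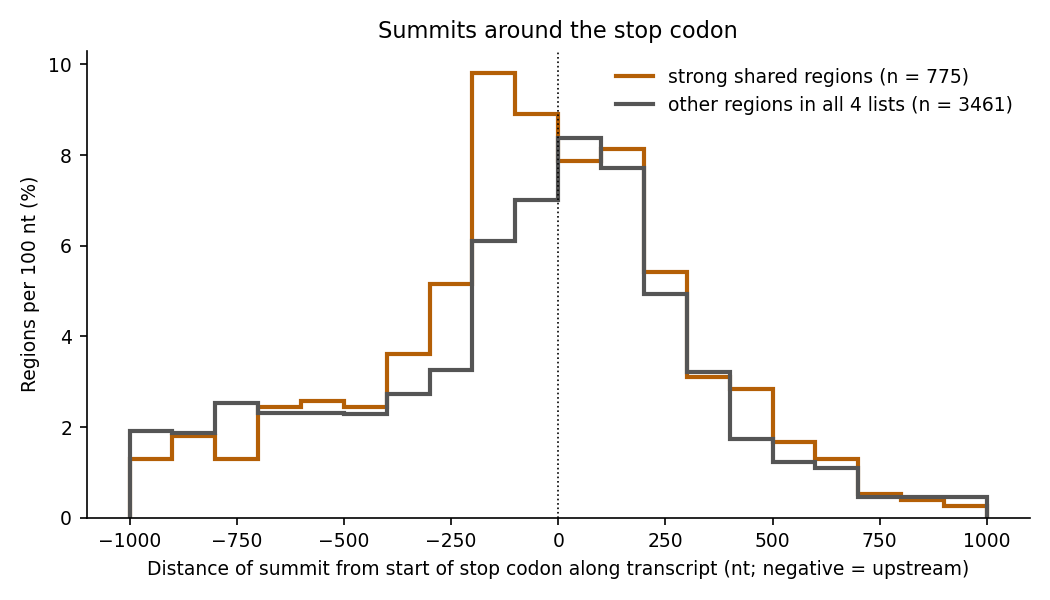
Share of regions per 100 nt (y axis, %) by the distance of the summit from the start of the stop codon along the transcript (x axis, nt, negative is upstream), for 775 strong regions and 3461 other shared regions in coding transcripts. The strong regions peak from 200 to 100 nt before the stop codon (9.81%, compared with 6.10%) and both lines lie close together in the 200 nt after it (7.87% and 8.13%, compared with 8.38% and 7.71%).

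The exon that held a strong region was long. An exon of 1000 nt or more held 81.0% of the strong regions (interval 78.1 to 83.6), 75.3% of the other shared regions and 63.8% of transcript positions. An exon of 400 nt or more held 98.6% and 98.0%. The last of several exons held 66.5% of the strong regions and 58.0% of the others, and internal exons held 25.7% and 33.7%. Regions on either side of the threshold differed less. With a lowest value of 10 to 12, 79% lay in exons of 1000 nt and 59.5% in the last exon. From 12 to 15 these shares were 80.3% and 63.6%. Where the exon was internal its median length was 961 nt for the strong and 1030 nt for the other regions. Close to an exon junction both sets were sparse. Within 100 nt of a junction lay 9 of 743 strong regions in spliced transcripts (1.21%) and 2.98% of the others, and within 200 nt 12.7% and 18.2%.

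DRACH was searched on the transcript strand in spliced sequence, with the distance taken to its A. It lay within 50 nt of the summit in 762 of the 775 strong regions (98.3%, interval 97.2 to 99.0), in 97.2% of the other shared regions and around 87.1% of all positions in the transcripts with a strong region. By number of motifs, 4 or more DRACH lay in that window in 46.1% of the strong and 36.6% of the other regions. GGACT, one of the DRACH words, lay within 50 nt in 29.4% (228 of 775, interval 26.3 to 32.7), compared with 25.2% of the others and 10.7% of positions. Its share was 28% in regions with a lowest value of 10 to 12 and 28.1% from 12 to 15. The word nearest to the summit was GGACA in 15.4% and GGACT in 12.5% of strong regions with DRACH, and in 11.6% and 10% of the others. At the midpoint of the region the GGACT shares were 23.2% and 20.7%. These matches describe sequence and do not locate a methylated base.

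**Figure D3:**
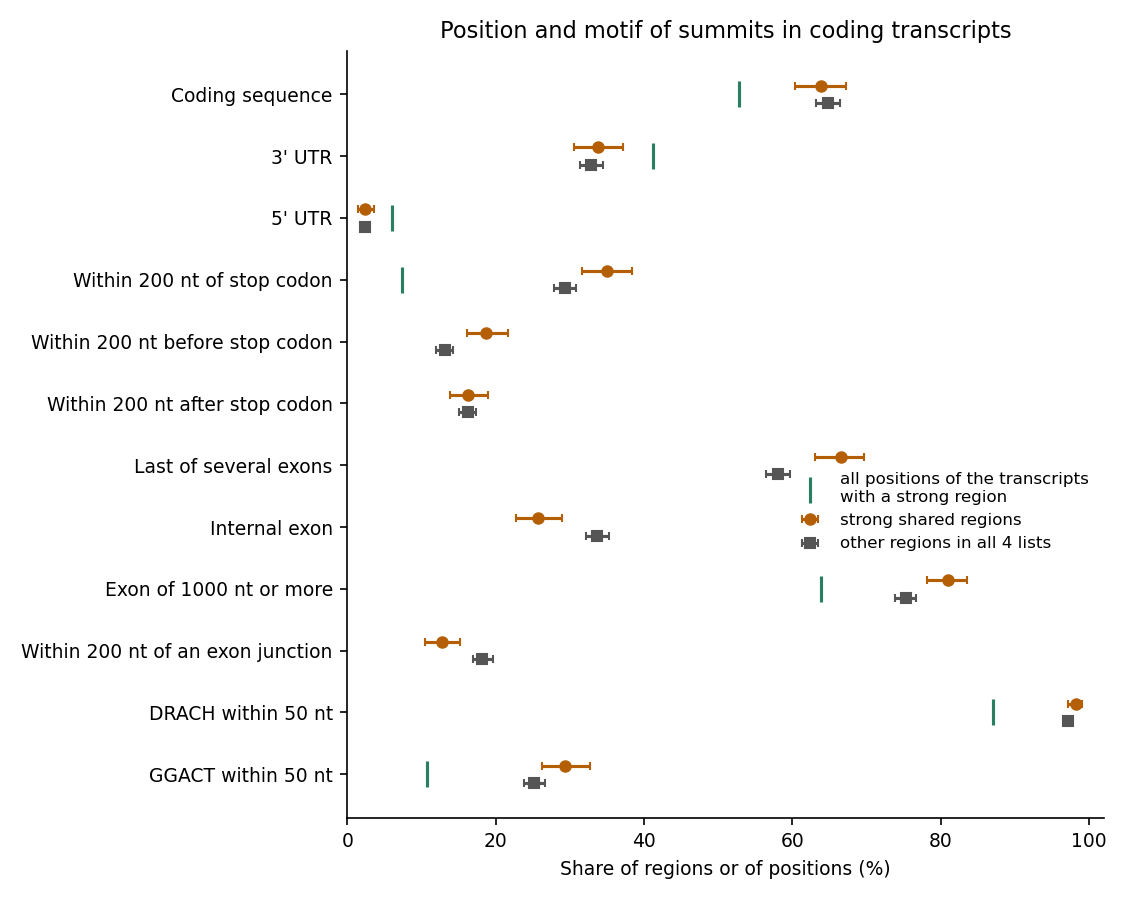
Share of regions in coding transcripts (x axis, %) with each feature (y axis), for 775 strong regions (circles) and 3461 other shared regions (squares), with 95% Wilson intervals that cover counting error only; green bars give the share of all positions of the 730 transcripts with a strong region where it was computed. The intervals of both sets overlap for coding sequence and UTRs and separate for the 200 nt before the stop codon, the last exon, internal exons, exons of 1000 nt and exon junctions.

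The summits of the 4 lists lay close together in strong regions. The distance from the first to the last of the 4 had a median of 47 bp, compared with 64 bp in the other shared regions. Without shCTR B, and with the regions chosen anew on the other lists, the medians were 30 and 42 bp, and without each of the other lists in turn they were 35 to 45 bp and 46 to 57 bp. With all lists, 77.8% of the strong regions had all 4 within 100 bp, compared with 63.8%. By the lowest of the 4 values, the median distance was 99 bp under 6, 53 bp from 10 to 12 and 49 bp from 12 to 15. In 36 strong regions the 4 strongest summits spread over more than 500 bp, so the lists took different summits of one wide region there. All 863 regions overlapped both interval files that the authors deposited as the overlap of replicates, as did 94.8% of the other shared regions. Both sets had to have a peak in both replicates of each shRNA, so this overlap was nearly fixed in advance and is no separate support.

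Whether knockdown moved the same sites within the transcript was asked with each list's own strongest summit. The share of strong regions with the summit in the 3′ UTR was 33.5% and 32.4% in shCTR (A and B) and 35.7% and 35.1% in shMettl14. The coding share ran the other way, with 64.2% and 65.2% in shCTR and 62.1% and 62.6% in shMettl14. The means were 33.0% ± 0.761 (SD, n = 2) and 35.4% ± 0.456 (SD, n = 2) for the 3′ UTR, a difference of 2.41 percentage points. The groups did not overlap, and p was 0.333 by an exact two-sided permutation test, the smallest value possible with 4 lists. DRACH within 50 nt gave 98.8% and 99.5% in shCTR and 97.4% and 97.8% in shMettl14, also without overlap (exact permutation p = 0.333).

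The position of summits also differed between lists. In 677 strong regions with all 4 summits in 1 transcript and within 200 bp, the median offset of a list's summit from the mean of the 4, along the transcript, was -4.8 and -19.8 nt in the shCTR lists and 16.5 and 9.0 nt in the shMettl14 lists. The shMettl14 summits therefore lay downstream, towards the 3′ end, in 602 of the 677 regions (88.9%), with a median shift of 25.5 nt. The median shift was 26.2 nt on the minus strand and 25 nt on the plus strand, and it was 25 nt in the other shared regions. The shortest interval of each list, by default the fragment length that the peak caller applies, was 141 bp and 170 bp in shCTR and 97 bp and 112 bp in shMettl14. The 4 offsets ran in the reverse order of these lengths. The departure of each list's shortest interval from the mean of the lists, divided by 2, was 5.5, 20, -16.5 and -9.0 bp in the same order, and the group means differed by 25.5 bp on that scale. Both shCTR lists had longer shortest intervals than both shMettl14 lists, so this length and the shRNA cannot be told apart.

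With each summit moved along the transcript by that amount, the 3′ UTR shares became 33.8% and 34.5% in shCTR and 34.1% in both shMettl14 lists, a difference of 0.02 percentage points (exact permutation p = 1). The coding shares became 63.9%, 63.4%, 63.5% and 63.5%, and the DRACH shares 98.7%, 98.1%, 98.3% and 98.1%. This step was chosen after the data were seen, and because the amounts nearly equal the offsets with the sign turned, it would remove a shift of any origin. Within 200 nt of the stop codon the groups overlapped before this step (35.4% and 33.9% in shCTR, 35.2% and 35.4% in shMettl14).

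**Figure D4:**
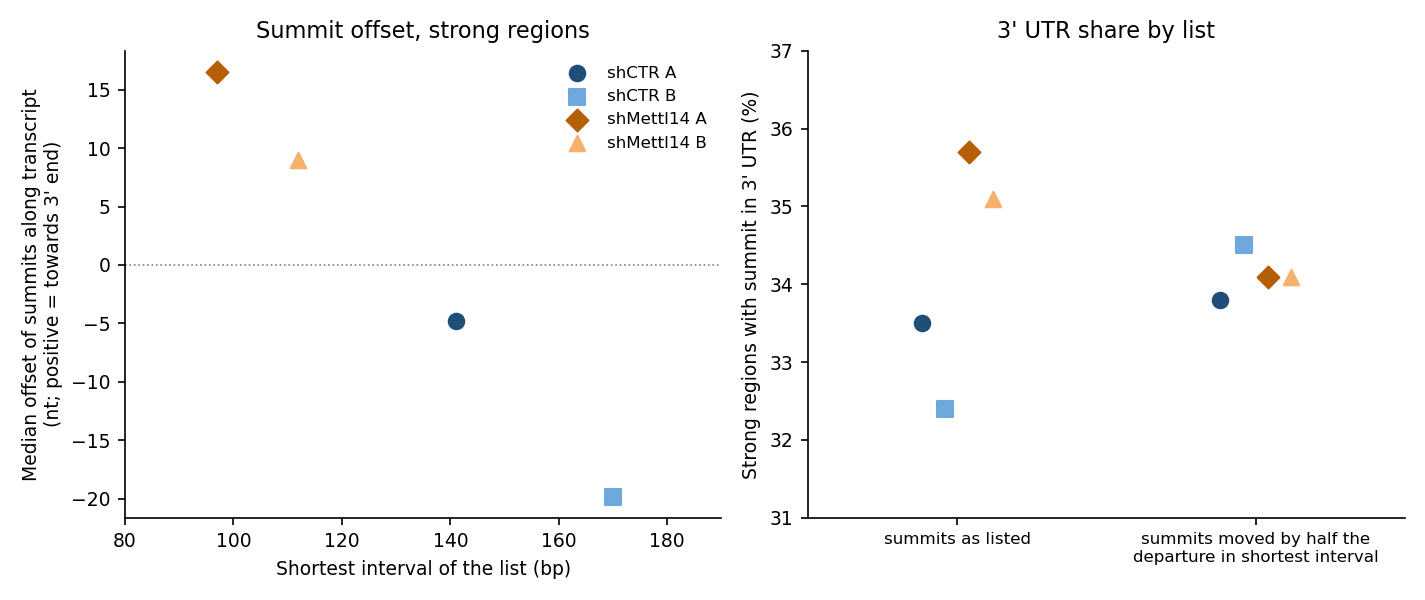
Left, median offset of each list's summits along the transcript (y axis, nt, positive towards the 3′ end) against the shortest interval of the list (x axis, bp) over 677 strong regions, with 1 point per list; right, share of strong regions with the summit in the 3′ UTR (y axis, %, not from 0) with summits as listed and moved. Offsets fall from 16.5 to -19.8 nt as the shortest interval grows from 97 to 170 bp, and the 4 shares draw together to between 33.8% and 34.5% after the move.

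Whether any strong region gained or lost enrichment after knockdown was tested by rank, since each list's ratios have their own background. The highest fold enrichment per region was ranked within each list, turned into a normal score, and compared with limma over all 4929 shared regions. No region passed an adjusted p of 0.05 (0% of those tested), and limma's lowest adjusted p among strong regions equalled 0.951. Before adjustment, 9 strong regions (1.04%) had p under 0.05, compared with 243 of all 4929 (4.93%). Of the 9, 6 were lower in shMettl14 (2.52% of all regions were) and 3 higher (2.41% of all regions were). A region had to be high in all 4 lists to be chosen, which limits how far its groups can differ, so nothing is read from this count. Fisher's exact test on the pileups, which sets libraries and not cultures against each other, also gave 0% at an adjusted p of 0.05. It gave 23 regions (0.467%) at an unadjusted p under 0.05 and an absolute log2 ratio over 1, of which 0 were strong regions. The median score difference of the strong regions was 0.03, with 409 lower and 454 higher in shMettl14.

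The largest rank decreases belonged to Zscan26, Cln8 and Spen. Zscan26, a zinc finger protein, had 24.5 and 20.6 in shCTR and 12.7 and 14.5 in shMettl14, and a score difference of -1.15 (limma, adjusted p = 0.951). Cln8, a membrane protein of the endoplasmic reticulum, had 31.4 and 24.5 in shCTR and 16.9 and 18.6 in shMettl14. In the 3′ UTR region of Spen, a transcriptional repressor, the values were 28.5 and 24.5 in shCTR and 13.6 and 21.5 in shMettl14. Lcorl rose most in rank, with 13.6 and 14.1 in shCTR and 18.5 and 25.1 in shMettl14 (score difference 1.20, limma, adjusted p = 0.951). These regions were picked for the size of their rank change, and none passed the test over all regions.

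The strong regions fell in 730 coding transcripts of as many genes, of 3206 genes with any region shared by all lists (22.8%). Gene lists were used to describe them, with the share of each list's genes that had a strong region among its genes with a shared region. The shares rest on the rule itself and on few genes, and they were not tested.

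Contractile genes and SRF cofactors had the highest share, 4 of 6 genes, and the median over the list of a gene's best lowest fold enrichment was 12.6, compared with 8.67 over all 3206 genes. Lmod1, a leiomodin of smooth muscle thin filaments, held 2 strong regions. The one in its coding sequence, at -244 nt, had 21.6, 14.1, 15.5 and 22.4 (shCTR A and B, shMettl14 A and B), and the one in its 3′ UTR had 13.7, 22.8, 17.7 and 12.7. The SRF coactivator Mrtfa had 15.7, 14.7, 15.6 and 17.3, with the summit at -100 nt. Mrtfb, its paralog, had 16.5 and 23.2 in shCTR and 12.2 and 12.1 in shMettl14, in the 3′ UTR. Synpo2, an actin-binding protein, had 22.5, 13.1, 21.3 and 19.8 in a coding exon of 2195 nt. The values of the 2 groups overlapped in Lmod1 and Synpo2 and did not in Mrtfb, whose adjusted p by limma was above the threshold like that of all strong regions. Of 9 smooth muscle markers 2 had a shared region (Lmod1 and Cald1), of 6 endothelial markers 2, of 5 leukocyte markers 0 and of 5 fibroblast markers 2. Acta2, Tagln, Myh11, Cnn1 and Myocd had none, and a peak list does not measure expression, so the cell type could not be checked further.

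Among AP-1 and immediate early factors 8 of 18 genes had a strong region (44.4%), and several of these genes have a single exon. Jun had 20, 20.3, 19.6 and 26.7, with the summit at 83 nt, and pileups of 103, 84, 59 and 68 fragments. Jund had 17.7, 23.5, 20.1 and 21.4 at 77 nt, and Cebpb 18.6, 23.3, 22.7 and 25.9 at 173 nt. All 3 regions lay in the 3′ UTR near the stop codon. Fosl2 and Ier2 also had 3′ UTR regions, and the summit of Egr1 was at -11 nt.

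Signalling genes that act on VSMC state followed. Of Wnt, Notch and Hippo genes 12 of 30 had a strong region (40.0%). Jag1, a Notch ligand, had 16.6, 21.3, 17.6 and 19.5, with the summit at -128 nt. Notch2, a receptor, had 13.1, 13.9, 12.3 and 14.1 in the 3′ UTR. The Hippo kinase Lats2 had a region in the 5′ UTR (18.7, 18.7, 15.1 and 17.1) and one in the 3′ UTR (20.3, 17.1, 16.0 and 17.7), and the Hippo effector Yap1 had 14.8, 15.4, 15.2 and 13.7. Of TGF-beta, BMP and SMAD genes 10 of 28 had one (35.7%). The ligand Tgfb2 had 22.8 and 25.1 in shCTR and 16.4 and 19.2 in shMettl14, and the inhibitory Smad7 had 18.4, 21.5, 18.8 and 25.9.

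Of receptor tyrosine kinases and PDGF genes 4 of 19 had a strong region (21.1%), a share close to that of all genes. The ligands Pdgfb (18.7, 25.2, 22.1 and 20.7) and Pdgfa (21.9, 17.3, 20.4 and 19.6) had theirs in the 3′ UTR. The receptors Pdgfra and Pdgfrb had shared regions whose lowest values, 9.92 and 10.6, were under the threshold. Igf1r had 30.4, 23.0, 18.4 and 37.4 at -106 nt, with 92 to 114 fragments, and a second region in exon 2. Adaptors and feedback inhibitors of these receptors had strong regions in 10 of 29 genes (34.5%), among them Frs2 (20.5, 19.8, 18.2 and 18.8), Dusp16, Socs5 and Socs6. In all 4 of these the summit lay in the coding part of the last exon.

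Chromatin modifiers and remodellers had strong regions in 19 of 51 genes (37.3%). Hdac4, a histone deacetylase, had 24.3, 22.3, 22.3 and 23.3. The acetyltransferase Crebbp had a region in exon 2 (22.2, 21, 19.1 and 22.2) and one in the last exon, and the methyltransferase Nsd1 likewise (29.4, 23.8, 21.8 and 23.8 in exon 2). Forkhead and SOX factors had 7 of 18 genes (38.9%). Foxo3 had 32.3, 31.5, 30.8 and 19.7 at 207 nt in the 3′ UTR, and Sox9 had 23.2, 18.3, 20.7 and 24.8 at 216 nt. Ubiquitin ligases and adaptors had 25 of 80 (31.2%), led by Herc2 (25.2, 38.7, 24.9 and 33.3).

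Of m6A writers, readers and erasers 4 of 9 genes had a strong region (44.4%, interval 18.9 to 73.3). The interval includes the 22.8% of all genes, so nothing is read from this share. Rbm15, a subunit of the writer complex, had 2 regions in its long first exon, with 20.7, 24.3, 13.1 and 20.4 in the one nearer to the stop codon. Its paralog Rbm15b had 16.0, 16.8, 14.7 and 13.5 in its only exon. The readers Ythdf3 (25.4, 16.2, 13.9 and 20.3) and Ythdf2 (14.5, 16.9, 12.4 and 14.3) had coding regions. The other Rbm15 region had 12.7 and 15.1 in shCTR and 16.9 and 16.7 in shMettl14, so the 2 regions of this transcript differed in which group was higher, and none of these regions passed the rank test.

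C2H2 zinc finger genes were the most numerous, 46 of 210 (21.9%, compared with 22.8% of all genes), with Zfp703, Zfp282, Hivep2 and Zfp503 at the top. Cadherins had 6 of 31 (19.4%), cytokine, NF-kB and IRF genes 3 of 17 (17.6%), and KLF and SP factors 2 of 9 (22.2%, Klf13 and Klf7). Extracellular matrix genes had the lowest share, 3 of 33 (9.09%, interval 3.14 to 23.6), namely the protease Adamts5, the collagen Col8a1 and the crosslinking enzyme Loxl1. The median best lowest fold enrichment of the matrix list was 6.98. Of 93 ribosomal protein genes 0 had a region shared by all lists. The remaining lists rested on few genes. Nuclear receptors and cofactors had 29.4% (5 of 17), homeobox factors 24% (6 of 25) and bHLH, ID and HES factors 33.3% (2 of 6). A-kinase anchoring proteins had 27.3% (3 of 11) and cell cycle genes 25% (2 of 8). The intervals of these lists all included the 22.8% of all genes, so no difference is read from them. Of the 9 genes that the study's text listed as m6A-modified and lower in expression after knockdown, 0 had a strong region. Klf4 came nearest with 14.1 and 14.6 in shCTR and 11.5 and 10.7 in shMettl14, so both shCTR lists passed the threshold and neither shMettl14 list did, and limma gave it an unadjusted p of 0.319.

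**Figure D5:**
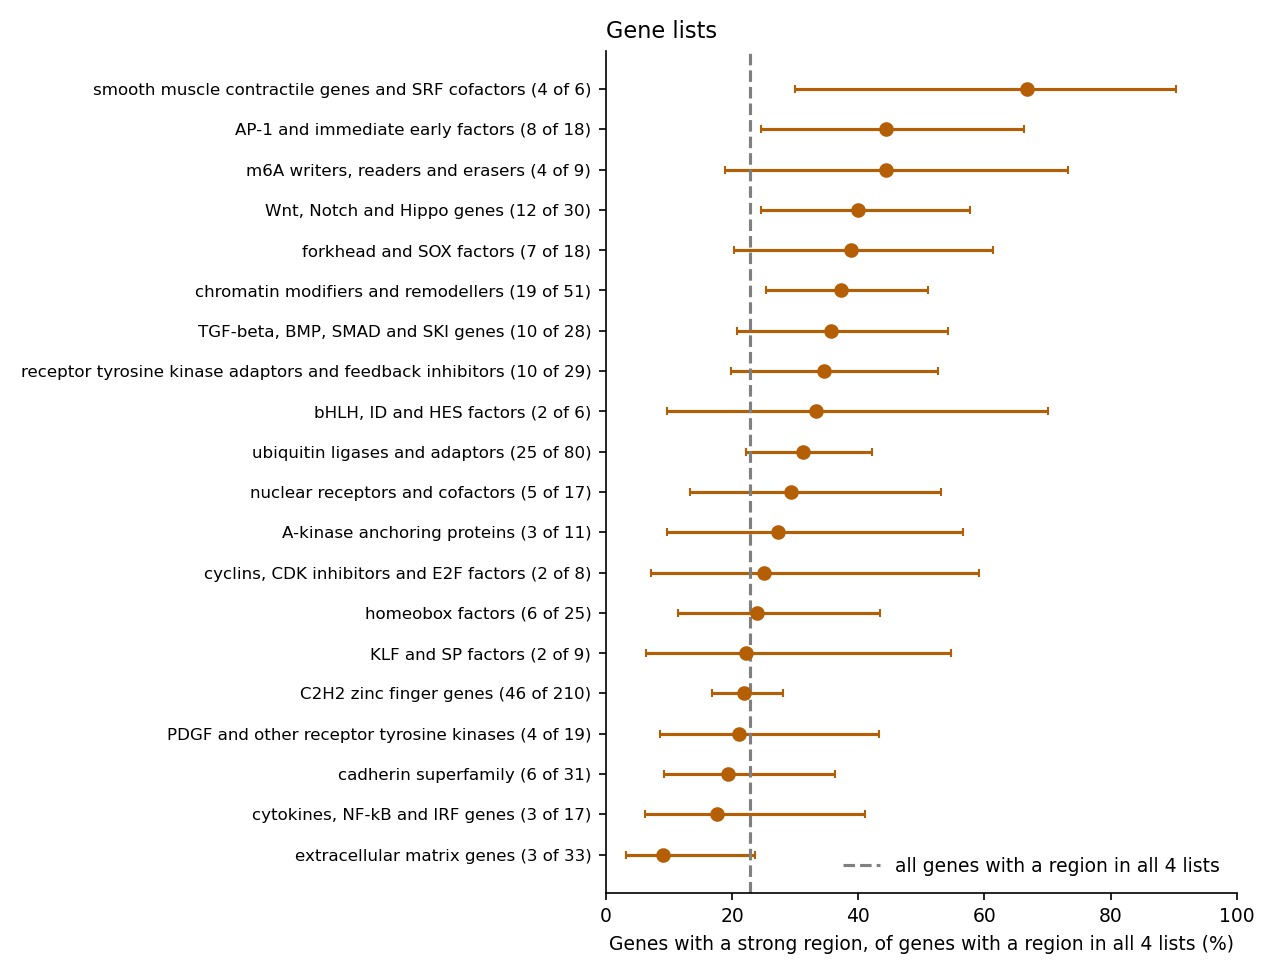
Share of genes with a strong region among the genes of each list with a region in all 4 peak lists (x axis, %), with the counts beside each list's name (y axis), 95% Wilson intervals that cover counting error only, and the share over all 3206 genes (22.8%) as a dashed line. The intervals of contractile, AP-1, Wnt, Notch and Hippo and chromatin genes lie above the line, and the other intervals cross it.

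Single factors of the smaller lists had regions as strong as those above. Bhlhe40, a basic helix-loop-helix repressor, had 24.4, 21.7, 25.8 and 36.2 in its last exon, and Twist1, of the same family, had 15.9, 13.8, 13.5 and 18.9 at 109 nt. Nrip1, a corepressor of nuclear receptors, had 26.1, 21, 26.1 and 20.6 at -239 nt. Klf13 had 21.6, 24.7, 21 and 25.9 at 1018 nt, farther into the 3′ UTR than most strong regions. Klf7 had a coding region (14, 14.1, 14.4 and 12.3) and a 3′ UTR region (13.4, 12.2, 13.1 and 12.2), both near the threshold. Among inflammatory genes, Tnfaip3, an inhibitor of NF-kB signalling, had 18.8, 16, 13.9 and 15.6. The ubiquitin ligase adaptor Fbxw7 had a coding region in exon 4 (19.8, 23.4, 18 and 24.1) and one at 67 nt (23, 19, 24.2 and 19.4).

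The 18 strong regions in 5′ UTRs lay more than 1000 nt before the stop codon, with 8 in the first of several exons, 9 in later exons and 1 in a single-exon gene. Ddx6, an RNA helicase of processing bodies, had the highest lowest value of them, with 18.4, 17.8, 17.2 and 22.2 in exon 2. St3gal2, a sialyltransferase, had 18.7, 26.8, 16.3 and 24.6. The forkhead factor Foxc1 had 12.8 in shCTR A but 26.6, 23.8 and 21.3 in the other lists. Spry2, a feedback inhibitor of receptor tyrosine kinases, had 16.5 and 15.1 in shCTR and 12.3 and 13.8 in shMettl14. Among all 18, the shMettl14 values were below both shCTR values in 5 (27.8%, compared with 18.7% of all shared regions) and above both in 1 (5.56%, compared with 13.4%), which is too few regions to read a difference from.

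Most genes had a single strong region (689 of 730). In 41 genes there were more, 2 in 37 genes and 3 in Adamts5, Spen, Zfhx3 and 9930111J21Rik2. Of the 41, 30 had them in different exons, 34 had one more than 1000 nt before the stop codon, 24 had one within 300 nt of it and 17 had both. Adamts5, an aggrecan-degrading protease, had regions in exon 1 (17.6, 18.7, 16.4 and 17.1), in exon 2 of 133 nt, and in the 3′ UTR (14.6, 16.8, 17.2 and 20.2). Zfhx3 had them in exons 8, 15 and 16, and Spen in exons 2, 3 and 16 beside a further region in an intron. The gene 9930111J21Rik2 has a near-identical neighbour, 9930111J21Rik1, with 2 strong regions at almost the same distances from its stop codon, and reads of such copies may be split between them. A further 246 of the 730 genes had at least 1 more shared region below the threshold.

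Outside coding transcripts the long noncoding RNA Tug1 had 2 strong regions on chromosome 11, with 17.8, 15.3, 15.1 and 18.6 in one (3640366 to 3640769) and 17.7, 12.5, 17.5 and 14.2 in the other. AI506816 had 21.4, 24.3, 20.6 and 30.6. Of the 14 strong regions outside genes, 6 lay in a stretch of chromosome 2 between 175690986 and 178038170, where 8 strong regions were found in all. The strongest of these (175788656 to 175788988) had 25.5, 28.9, 31.2 and 26. In this stretch 10 of 50 protein-coding genes are named Zfp. Genes there may resemble one another, which was not measured, so the placement of these reads is uncertain.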

How the data were processed

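The authors aligned m6A-RIP-seq reads to mm10 (GRCm38) with STAR, filtered for unique mapping with SAMtools and ran MACS2 on each IP library with the matching input as control. Versions and options are not given in the sources used here. The 4 deposited lists give, per the file headers' standard layout, fold enrichment (a ratio) and −log10 p-values and q-values per summit. The 2 deposited overlap files hold intervals only. Library totals were not analysed here. Pileups were recovered as whole numbers from the ratio and −log10 p that the authors deposited, by MACS2's formulas (100% of summits matched, largest error 0.000151 in −log10 p).

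The members, gene lists and tests were chosen with earlier results of these data known. Genes were placed with GENCODE M21, using for each of 21622 genes the complete coding transcript with the longest coding sequence. Named genes are the 25 highest by lowest fold enrichment, those next to the threshold, the study's 9 genes, up to 4 per gene list, the 3 largest rank changes each way and genes with most members, with a few more of the listed genes chosen after their values were seen. The 21 lists were matched by symbol, and 14 misleading matches were taken out. Ranks were compared with limma 3.58.1 (R 4.3.3, lmFit and eBayes, two-sided, Benjamini-Hochberg over 4929 regions) without a block, a step tested on simulated data. Shares have 95% Wilson intervals. Other steps ran in scipy 1.17.1, pandas 2.3.3 and numpy 2.4.6 under Python 3.11.15. Some named items are not reported here.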

Additional observations from a re-analysis of the deposited data

How the results depend on the processing

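Over 14 results, 108 alternative values were computed. Of these, 18 moved and 2 changed sign. The other 88 were counts within 1.5 times the reported count, shares and spreads within its interval, or differences of the same sign whatever their size. At a threshold of 10 there were 1429 regions and at 15 there were 342, with the 4 summits within 100 bp 671, and leaving out 1 list gave 951 to 1027. Moving summits took the 3′ UTR difference from 2.41 to 0.02 points and the coding difference from -2.34 to -0.146. At 15 the coding share was 67.2%, the share within 200 nt of the stop codon 39.3% and that in exons of 400 nt or more 99.4%. With the midpoint of the region the stop codon share was 28.7%, DRACH 95.2% and GGACT 23.2%. Other windows gave 16.8% within 100 nt and 52.0% within 400 nt of the stop codon, 81.0% for exons of 1000 nt, 88.0% for DRACH within 25 nt, and 16.6% and 45.5% for GGACT within 25 and 100 nt. Without 1 list in turn the coding share was 62.7% to 64.1%, the 3′ UTR share 33.9% to 35.2%, the stop codon share 34.3% to 35.1%, long exons 98.7% to 98.8%, DRACH 97.4% to 98.6%, GGACT 28.9% to 29.8% and the median summit spread 30 to 45 bp (47 bp with all lists, 30 bp without shCTR B, 35 bp without shMettl14 A).

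The differences of shMettl14 minus shCTR without 1 list were -2.87 to -1.80 points for coding sequence, 1.87 to 2.94 for the 3′ UTR, -0.129 to 1.46 for the stop codon (negative without shCTR B), -1.87 to -1.22 for DRACH and -2.59 to -0.451 for GGACT. Moving summits by list, an alternative chosen after seeing the data, turned the GGACT difference from -1.52 to 0.0266 points. The rank test by limma gave 0 to 3 regions at an adjusted p of 0.05 without 1 list, 3 without shMettl14 A, with 0 strong regions among them. With the replicate letter as a block it gave 0 (292 at an unadjusted p under 0.05, 15 of them strong regions), and the letters are not stated to pair cultures. Low pileups and 2 lists per shRNA limit every comparison between groups.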
